A study of Mus musculus with 4 samples.

Results

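Phase II conjugation was described here through 63 of the 56748 genes listed in the deposited count table. They were taken by name, as all genes of the Ugt1a, Ugt2a, Ugt2b, Sult, Gsta, Gstm, Gstp, Gstt, Gsto, Gstk and Gstz families whose symbols carry a member number, and 8 names marked as pseudogenes with -ps were left out. The list held 19 UDP-glucuronosyltransferases (UGTs), 21 cytosolic sulfotransferases (SULTs) and 23 glutathione S-transferases (GSTs). UGTs transfer glucuronic acid, SULTs transfer sulfate and GSTs transfer glutathione onto drugs, hormones, bile acids, dietary chemicals and reactive lipid products, which makes these molecules more soluble and lets efflux pumps carry them out of the cell. In the small intestine (SI) the absorptive enterocytes hold most of this activity and form the barrier that swallowed chemicals meet before the liver.

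The SI came from WT (p53+/+) mice and from p53-/- mice, which lack p53 in every cell from the germline on, and both lines were from the Jackson Laboratory. All 4 mice had received 12 Gy of total-body irradiation (TBI) from a Cs-137 γ-source and were sampled at 1 day post-TBI, so no unirradiated SI stands beside them. The study's methods describe the animals as matched in age and gender, and state that its data points are biological replicates. Messenger RNA of the tissue was sequenced in 2 libraries of each genotype, named 7 and 8 (WT) and 9 and 10 (p53-/-) after the columns of the table. In such bulk tissue, fewer cells of a type and less RNA per cell cannot be told apart.

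Libraries held 15005479 to 22173164 counts, and 0.155 to 0.210% of them fell on the conjugation genes. Trp53 itself was at 57.7 and 47.1 CPM (a gene's counts relative to the TMM-scaled size of the library) in WT and at 19.8 and 22.5 CPM in p53-/- SI, and which part of the gene the remaining reads cover was not analysed here. Library 10 stood apart from the rest: the ribosomal RNA gene Rn18s-rs5 took 4.59% of its counts against 0.296 to 0.863% elsewhere, and Xist, the RNA of the inactive X chromosome, had 588 counts against 0 to 4. The Y-linked gene Ddx3y was at 30.6 CPM in library 10 and at 31.0 to 32.4 CPM in the other libraries. Library 8 stood apart in smooth muscle markers, whose 8 genes summed to 5604 CPM there and to 723 to 1392 CPM in the others. The ileal bile acid genes Fabp6 and Slc10a2 were at 1639 to 5483 and at 717 to 1293 CPM, and the brush-border disaccharidase Sis at 1270 to 1410 CPM. Fabp1 and Lct, which are strongest in proximal SI, had no more than 88 and 16 counts. Another proximal marker, Ggt1, was at 461 to 735 CPM, and the libraries were not assigned to a segment of the SI. The liver markers Alb and Ahsg were at 0 counts in all 4 libraries.

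Of the 63 conjugation genes, 37 had enough counts to be tested among 16094 genes, 17 had 0 counts in every library and the other 9 had at most 4 counts in any library. No conjugation gene passed the threshold, an adjusted p under 0.05 (quasi-likelihood test of edgeR, Benjamini-Hochberg method over all genes tested), in either direction (0 of 37). The same test called 0.491% of all genes, 0.298% higher and 0.193% lower in p53-/- SI. At an unadjusted p under 0.05, 10 of the 37 (27.0%) stood out, 4 higher and 6 lower, against 18% of all genes, 10% higher and 7.92% lower. DESeq2 called 5 conjugation genes (against 9.94% of all genes), edgeR's likelihood ratio test called 3 (against 8.05%), and edgeR's quasi-likelihood test without a filter on low counts called 7 of 46 (against 7.88%). Without WT library 8, 3 of the 37 passed the threshold of the main test, all GSTs and all lower in p53-/- SI (8.11%, against 5.99% of all genes called either way and 2.01% lower). Sult6b2 entered the test only through the counts of the p53-/- libraries, and it is among the 4 higher genes here, the 3 of the likelihood ratio test and the 7 of the fit without a filter.

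Levels of p53-/- and WT libraries did not overlap for 22 of the 37 genes (59.5%), of which 6, Sult6b2 among them, were higher and 16 lower in p53-/- SI. Over all genes tested this share was 50.7%, with 26.4% higher and 24.4% lower. The median log2 fold change of p53-/- over WT was -0.25 for the 37 genes and -0.01 for all genes tested. It was 0.42 for the 8 UGTs tested, -0.37 for the 8 SULTs and -0.33 for the 21 GSTs. The sign was positive for 15 genes and negative for 22, and without library 10 for 14 and 23, with a median of -0.19.

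**Figure D1:**
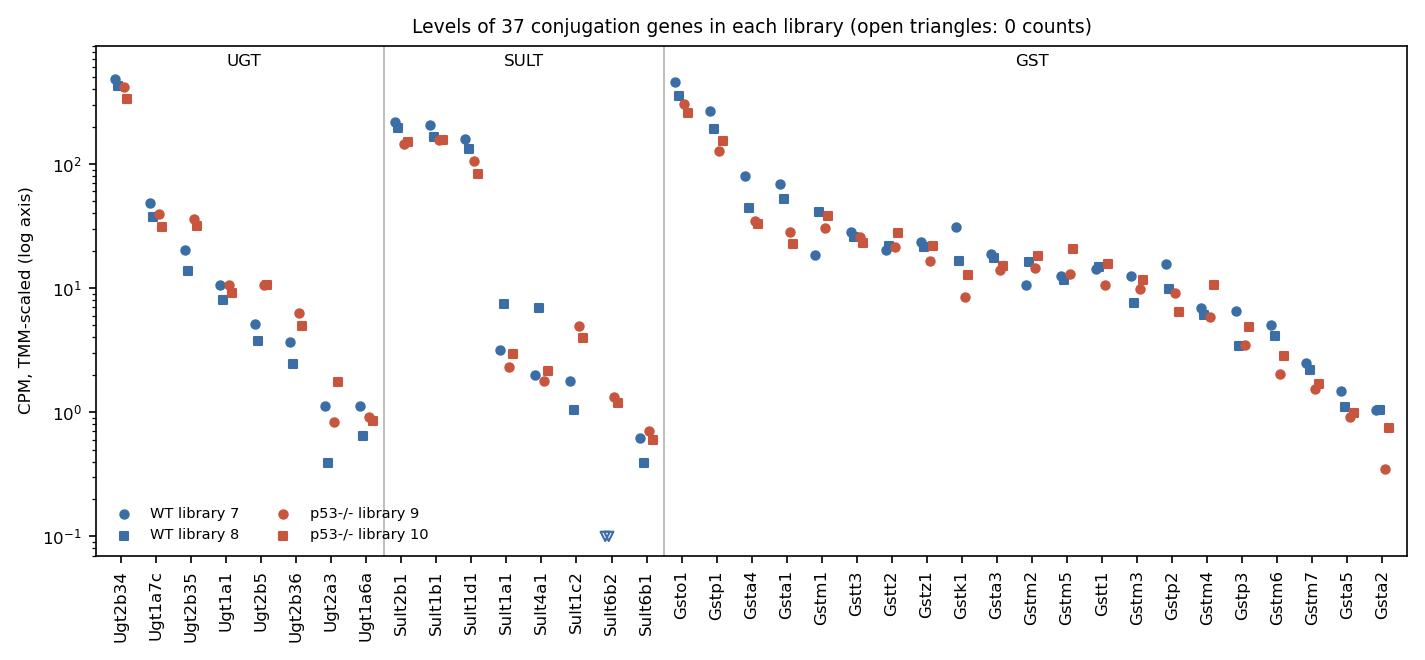
Level of each of the 37 tested conjugation genes (log axis, CPM after TMM scaling) in WT libraries 7 and 8 (blue) and p53-/- libraries 9 and 10 (red), sorted by level within UGTs, SULTs and GSTs. Ugt2b34 and Gsto1 were the most counted genes, p53-/- lay above WT without overlap for 6 genes and below for 16, and Sult6b2 had 0 counts in both WT libraries (open triangles).

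A small number of genes carried most of the counts. In CPM per kilobase of exon, a scale that allows genes of unlike length to be compared, the means of the WT libraries were 201 for Gsto1, 148 for Gstp1 and 105 for Ugt2b34. Below these came Sult1b1 (66.8), Gsta1 (63.2), Sult1d1 (59.1), Sult2b1 (52.3) and Gsta4 (49.1), whose neighbours in this order overlapped between the WT libraries. The 6 most counted conjugation genes held 79.0 and 78.4% of the counts of the whole list in WT libraries and 77.3 and 74.5% in p53-/- libraries. In p53-/- SI the UGTs took 32.0 and 27.9% of the list's counts against 25.2 and 26.3% in WT SI, and the GSTs 42.3 and 45.9% against 48.8 and 46.4%.

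Members of the UGT2B family, which conjugate steroids, bile acids and many drugs, lie side by side on chromosome 5 with the UGT2A genes and 3 SULT1 genes. Ugt2b34 was the main member in this tissue, and 3 of its neighbours, Ugt2b35, Ugt2b36 and Ugt2b5, were among the 5 conjugation genes with the largest positive fold changes whose genotypes did not overlap. Their promoters are shown because the 4 genes lie in 1 cluster and their fold changes had unlike signs. Each line is a RefSeq promoter (build GRCm38.p6), written 5′ to 3′ on the strand of the gene, from 250 bases before to 50 bases after the transcription start. The capital letter marks the first base of the transcript.
Ugt2b34 (chr5:86906888-86907187, minus strand): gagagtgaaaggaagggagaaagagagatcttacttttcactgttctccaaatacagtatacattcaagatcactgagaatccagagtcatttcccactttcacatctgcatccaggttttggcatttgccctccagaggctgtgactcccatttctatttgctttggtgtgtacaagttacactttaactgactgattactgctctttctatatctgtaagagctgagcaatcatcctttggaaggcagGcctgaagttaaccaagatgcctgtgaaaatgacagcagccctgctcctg
Ugt2b35 (chr5:87000610-87000909, plus strand): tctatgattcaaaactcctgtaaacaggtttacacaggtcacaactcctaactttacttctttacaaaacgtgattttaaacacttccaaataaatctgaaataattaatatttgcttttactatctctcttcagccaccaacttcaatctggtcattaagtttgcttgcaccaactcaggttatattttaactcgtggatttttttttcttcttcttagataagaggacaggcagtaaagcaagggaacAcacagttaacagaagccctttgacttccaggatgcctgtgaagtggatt
Ugt2b36 (chr5:87092506-87092805, minus strand): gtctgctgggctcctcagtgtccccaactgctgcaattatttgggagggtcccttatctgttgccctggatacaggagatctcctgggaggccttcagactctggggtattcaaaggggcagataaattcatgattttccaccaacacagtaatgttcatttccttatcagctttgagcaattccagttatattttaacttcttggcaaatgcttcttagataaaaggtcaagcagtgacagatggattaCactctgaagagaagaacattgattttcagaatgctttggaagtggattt
Ugt2b5 (chr5:87140291-87140590, minus strand): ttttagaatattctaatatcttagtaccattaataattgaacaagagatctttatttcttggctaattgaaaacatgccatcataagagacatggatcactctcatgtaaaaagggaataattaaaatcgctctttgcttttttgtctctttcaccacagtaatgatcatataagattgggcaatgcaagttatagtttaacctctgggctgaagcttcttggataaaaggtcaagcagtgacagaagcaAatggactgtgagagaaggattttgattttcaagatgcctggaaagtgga

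Over the aligned promoters, Ugt2b36 and Ugt2b5 had 61.4% identical positions, Ugt2b35 shared 54.9% with Ugt2b36 and 57.9% with Ugt2b5, and Ugt2b34 shared 46.3 to 48.2% with the other 3. Unrelated promoters were not aligned for comparison, so whether these shares exceed those of unrelated sequence was not tested. The promoters to be shown were chosen after the values had been seen.

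Ugt2b34 was at 481 and 421 CPM in WT and 413 and 334 CPM in p53-/- SI. The p53-/- values lay below the WT values by a narrow margin, and the log2 fold change of -0.27 (SE 0.22, edgeR adjusted p = 0.592) turned to 0.19 when libraries were scaled to epithelial markers. Ugt2b35 was at 20.4 and 13.8 CPM in WT and 36.2 and 31.6 CPM in p53-/- SI. All p53-/- values were above all WT values, with a mean of 33.9 ± 3.30 against 17.1 ± 4.62 CPM (SD, n = 2). The log2 fold change was 0.99 (SE 0.25) and the edgeR adjusted p was 0.150. DESeq2 called it, with an adjusted p of 0.0283, and the fold change lay between 0.73 and 1.30 as each library was left out.

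Ugt2b5 was at 5.14 and 3.76 CPM in WT and at 10.6 and 10.6 CPM in p53-/- SI. It had the largest fold change of the cluster, 1.25 on the log2 scale (SE 0.34, edgeR adjusted p = 0.163), which DESeq2 called with an adjusted p of 0.0433. Of the 75-base windows in its exons, 30.4% were shared with other genes, mostly with Ugt2b38, which had at most 4 counts in any library. Ugt2b36 was at 3.65 and 2.47 CPM in WT and 6.36 and 4.97 CPM in p53-/- SI, a log2 fold change of 0.89 (SE 0.42) with an edgeR adjusted p of 0.351 and with DESeq2 one of 0.428. Without library 10 the log2 fold changes of Ugt2b35, Ugt2b5 and Ugt2b36 were 1.14, 1.31 and 1.11.

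The makeup of the UGT2B counts within a library does not depend on how libraries are scaled. Ugt2b5, Ugt2b35 and Ugt2b36 together took 5.71% of the UGT2B counts in library 7 (95% exact Clopper-Pearson interval 5.22 to 6.23%) and 4.54% in library 8 (4.06 to 5.07%). In the p53-/- libraries they took 11.4% (10.8 to 12.0%) and 12.4% (11.6 to 13.1%), and no interval of 1 genotype met one of the other. These genes were picked by their positive fold changes in these same libraries, so the separation of their share is no separate support for a difference. The share of Ugt2b34 was 94.2 and 95.5% in WT and 88.6 and 87.6% in p53-/- SI. These intervals cover counting error only, and with 2 libraries per genotype an exact permutation test of a share could give no p below 0.333. Summed over the family, UGT2B counts were at 510 and 441 CPM in WT and 466 and 382 CPM in p53-/- SI, a log2 fold change of -0.17 that turned to 0.30 under epithelial scaling and to 0.03 without library 10.

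**Figure D2:**
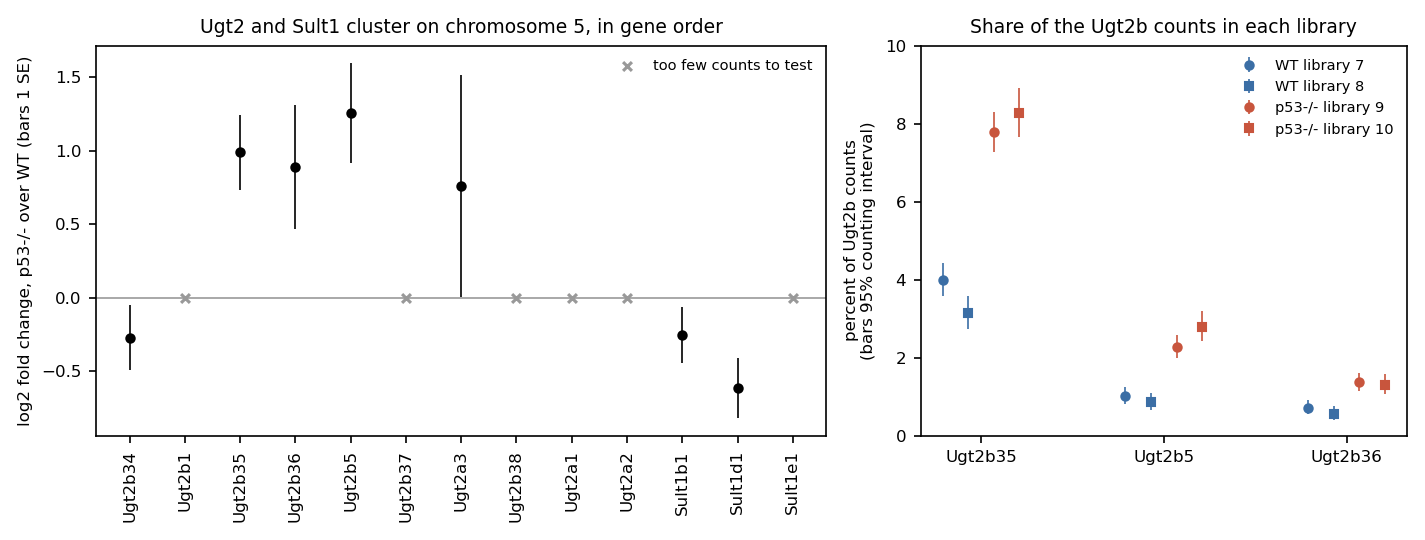
Left, log2 fold change of p53-/- over WT (bars 1 SE) for the genes of the chromosome 5 cluster in their order along the chromosome, with crosses for genes that had too few counts to be tested. Right, percent of UGT2B counts taken by Ugt2b35, Ugt2b5 and Ugt2b36 in each library (bars 95% exact intervals), where both p53-/- libraries lie above both WT libraries for each gene. The genes on the right were picked by their positive fold changes in these libraries.

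Elsewhere in the cluster, Ugt2a3, the only UGT2A gene tested, had 18 and 6 counts in WT and 19 and 35 counts in p53-/- SI, with overlapping genotypes and a log2 fold change of 0.76 (SE 0.75). Ugt2b37, Ugt2a1 and Ugt2a2 had 0 counts in every library, and Ugt2b1 and Sult1e1, the oestrogen sulfotransferase, had at most 2 and 4 counts. Sult1b1 and Sult1d1, at the far end of the cluster, had negative fold changes and are described with the SULTs.

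UGT1A enzymes, which share their last exons and differ in the first, include the bilirubin-conjugating enzyme Ugt1a1. Ugt1a7c took 75.6 to 80.8% of UGT1A counts in the 4 libraries and was at 48.6 and 37.6 CPM in WT and 39.6 and 31.1 CPM in p53-/- SI. Ugt1a1 was at 10.6 and 8.05 CPM in WT and 10.6 and 9.05 CPM in p53-/- SI, and Ugt1a6a, which acts on planar phenols, was at 0.649 to 1.11 CPM. For these 3 genes the genotypes overlapped, with log2 fold changes of -0.29 (0.19 under epithelial scaling), 0.07 (-0.12 without library 8) and 0.00 (-0.34 without library 8). Only 17.3% (Ugt1a1) to 49.7% (Ugt1a6a) of their exonic bases are not shared with another gene, so the split among them rests on the reads of few exons. The sum of UGT1A was at 60.5 and 46.6 CPM in WT and 51.2 and 41.2 CPM in p53-/- SI (log2 fold change -0.21, and 0.26 under epithelial scaling).

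Among the sulfotransferases, 3 genes held nearly all counts and 12 had none in any library. Sult2b1, which sulfonates cholesterol and related sterols, was at 220 and 193 CPM in WT and 144 and 150 CPM in p53-/- SI. The genotypes did not overlap, with means of 207 ± 18.5 and 147 ± 4.27 CPM (SD, n = 2). The log2 fold change was -0.50 (SE 0.17) and the edgeR adjusted p was 0.235. DESeq2 called it lower with an adjusted p of 0.0452, and under epithelial scaling the fold change was -0.02. Sult1d1, which acts on catecholamines and eicosanoids, was at 158 and 132 CPM in WT and 106 and 83.5 CPM in p53-/- SI. Its log2 fold change was -0.61 (SE 0.20, edgeR adjusted p = 0.218), which came to -0.15 with overlapping genotypes under epithelial scaling. Its share of SULT1 counts was 43.0% in both WT libraries against 39.5 and 33.9% in the p53-/- libraries. Sult1b1, a thyroid hormone and phenol sulfotransferase, was at 205 and 166 CPM in WT and at 156 CPM in both p53-/- libraries, a log2 fold change of -0.25 (0.23 under epithelial scaling) with an edgeR adjusted p of 0.555.

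Of the conjugation genes with counts in every library, the sparsely counted Sult1c2 had the largest positive fold change. Sult1c2 had 29 and 16 counts in WT and 112 and 79 counts in p53-/- SI, or 1.79 and 1.04 against 4.91 and 3.93 CPM. The genotypes did not overlap, the log2 fold change was 1.64 (SE 0.50, edgeR adjusted p = 0.191), and its share of SULT1 counts was 0.487 and 0.338% in WT against 1.82 and 1.6% in p53-/- SI. Sult6b2 had 0 counts in both WT libraries and 30 and 24 counts in the p53-/- libraries. With 3 counts set for each WT library it was at least 6.60-fold higher in p53-/- SI, and since it passed the filter on low counts only through that genotype, no p is given for it. Its relative Sult6b1 had 6 to 16 counts per library with overlapping genotypes.

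Sult1a1, which sulfonates phenols, and Sult4a1, known mainly from neurons, were both highest in WT library 8. Sult1a1 was at 3.16 and 7.40 CPM in WT and 2.32 and 2.93 CPM in p53-/- SI, and Sult4a1 at 1.98 and 6.88 against 1.80 and 2.14 CPM. Library 8 also held the highest smooth muscle and fibroblast markers (5604 and 641 CPM summed, against at most 1392 and 475 elsewhere), and their part in these values was not tested. Without library 8 the log2 fold change of Sult1a1 was -0.27, against -1.0 with it, and that of the SULT4 gene was -0.02, against -1.17.

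Glutathione S-transferases of the alpha class conjugate electrophiles and lipid peroxidation products. All were lower in both p53-/- libraries than in both WT libraries, as were 24.4% of all genes tested. Under epithelial scaling Gsta1 and Gsta4 still lay below WT without overlap, while Gsta2, Gsta3 and Gsta5 overlapped between genotypes. Gsta1 was at 68.6 and 52.3 CPM in WT and 28.4 and 22.5 CPM in p53-/- SI. Its means were 60.4 ± 11.5 and 25.4 ± 4.15 CPM (SD, n = 2), a level 2.38-fold lower in p53-/- SI, and its adjusted p of 0.0865 (log2 fold change -1.25, SE 0.21, edgeR's quasi-likelihood test) was the lowest of the 37 genes. DESeq2 called it with an adjusted p of 0.000255, and the likelihood ratio test called it as well. The fold change kept its sign in every setting, at -0.77 under epithelial scaling (edgeR adjusted p = 0.157), -1.44 without library 8 and -1.03 without library 10.

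Reads of Gsta1 can hardly be told from those of the neighbouring gene model Gm3776, which was looked at after the values of Gsta1 had been seen. Of the 75-base windows in Gsta1 exons, 86.3% also occurred in other genes, mostly in Gm3776. Gm3776 had 321 and 182 counts in WT and 128 and 111 counts in p53-/- SI, a log2 fold change of -1.51 (SE 0.36). The sum of both was at 88.4 and 64.1 CPM in WT and 34.0 and 28.0 CPM in p53-/- SI. How reads were split among these and other genes was not tested.

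Gsta4, the alpha-class enzyme specialised for 4-hydroxynonenal, was at 80.1 and 44.2 CPM in WT and 34.7 and 32.9 CPM in p53-/- SI. Its WT libraries were far apart, and the log2 fold change of -0.88 (SE 0.30, edgeR adjusted p = 0.224) was -0.38 without library 7 and -1.25 without library 8. Under epithelial scaling it was -0.36. Gsta3, which detoxifies aflatoxin epoxide in mice, was at 18.9 and 17.6 CPM in WT and 14.0 and 15 CPM in p53-/- SI, a log2 fold change of -0.33 (0.14 under epithelial scaling). Gsta2 and Gsta5 had 8 to 24 counts per library, with 46.9 and 36.2% of their exonic windows shared with other genes. The log2 fold change of Gsta5, -0.43, turned to 0.06 under epithelial scaling. Summed, the alpha class was at 170 and 116 CPM in WT and 78.3 and 72.2 CPM in p53-/- SI, a log2 fold change of -0.93 (SE 0.23, edgeR adjusted p = 0.145, DESeq2 adjusted p = 0.00512) that was -0.43 under epithelial scaling. Within the class, Gsta1 took 40.3 and 45.0% of counts in WT and 36.2 and 31.2% in p53-/- SI, and Gsta3 took 11.1 and 15.1% against 17.9 and 20.8%.

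Gstp1, the pi-class enzyme and the second most abundant conjugation gene per kilobase in WT SI, was at 268 and 190 CPM in WT and 127 and 153 CPM in p53-/- SI. The genotypes did not overlap, and the log2 fold change was -0.71 (SE 0.24, edgeR adjusted p = 0.222, DESeq2 adjusted p = 0.0414). It was -0.43 without library 7, -0.79 without library 10 and -0.20 under epithelial scaling. Gstp2, of whose exonic windows 68.2% were shared with other genes and mostly with Gstp1, was at 15.7 and 9.80 CPM in WT and 9.12 and 6.42 CPM in p53-/- SI. Of the windows of Gstp1, 57.7% were shared, mostly with Gstp2, and how reads were split between them was not tested. Gstp1 took 91.0 to 93.5% of the pi-class counts in the 4 libraries, with no order by genotype.

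Gsto1, an omega-class enzyme that acts as a thiol transferase and dehydroascorbate reductase, was at 461 and 353 CPM in WT and 307 and 259 CPM in p53-/- SI. Its levels did not overlap between genotypes, and the log2 fold change of -0.52 (SE 0.23, edgeR adjusted p = 0.317) came to -0.05 under epithelial scaling. Gstk1, the kappa-class enzyme of mitochondria and peroxisomes, was at 31.1 and 16.5 CPM in WT and 8.46 and 12.7 CPM in p53-/- SI. It had the second largest negative fold change of the conjugation genes without overlap, -1.17 on the log2 scale (SE 0.40, edgeR adjusted p = 0.223), which ranged from -1.56 without library 8 to -0.63 without library 7. Under epithelial scaling the log2 fold change of Gstk1 was -0.62.

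Of the 7 mu-class genes, 1 lay above WT without overlap and 2 lay below, as did 26.4 and 24.4% of all genes tested. Gstm1 was at 18.4 and 40.7 CPM in WT and 30.6 and 38.0 CPM in p53-/- SI, and its log2 fold change of 0.22 turned to -0.24 without library 7. Gstm5 was the only GST with p53-/- levels above WT levels, at 12.4 and 11.7 CPM in WT and 13.1 and 20.5 CPM in p53-/- SI. The margin was narrow, and the log2 fold change of 0.48 (SE 0.31, edgeR adjusted p = 0.491) was 0.17 without library 10. Gstm6 lay the other way, at 5.01 and 4.09 CPM in WT and 2.02 and 2.84 CPM in p53-/- SI, a log2 fold change of -0.91 (SE 0.43), as did Gstm7, at 2.48 and 2.21 against 1.53 and 1.69 CPM (log2 fold change -0.54, SE 0.46). Gstm2 and Gstm3, at 7.53 to 18.1 CPM, overlapped between genotypes, with log2 fold changes of 0.28 and 0.09, the latter turning to -0.23 without library 8. The sum of the mu class was at 68.3 and 88.4 CPM in WT and 77.3 and 103 CPM in p53-/- SI, with an edgeR adjusted p of 0.703.

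Theta- and zeta-class genes had log2 fold changes between -0.23 and 0.22. Gstt3 was at 28.5 and 25.8 CPM in WT and 25.9 and 22.9 CPM in p53-/- SI, Gstt2 at 20.3 and 21.7 against 21.3 and 27.7 CPM, and Gstt1, which acts on small halogenated molecules, at 14.2 and 14.7 against 10.6 and 15.7 CPM. Gstz1, which isomerises maleylacetoacetate in tyrosine breakdown, was at 23.5 and 21.5 CPM in WT and 16.7 and 21.6 CPM in p53-/- SI. The genotypes overlapped for all 4 genes. The theta-class sum was at 63.1 and 62.2 CPM in WT and 57.8 and 66.4 CPM in p53-/- SI, with a log2 fold change of -0.01 (SE 0.15) whose sign turned under 7 of the 12 other settings.

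**Figure D3:**
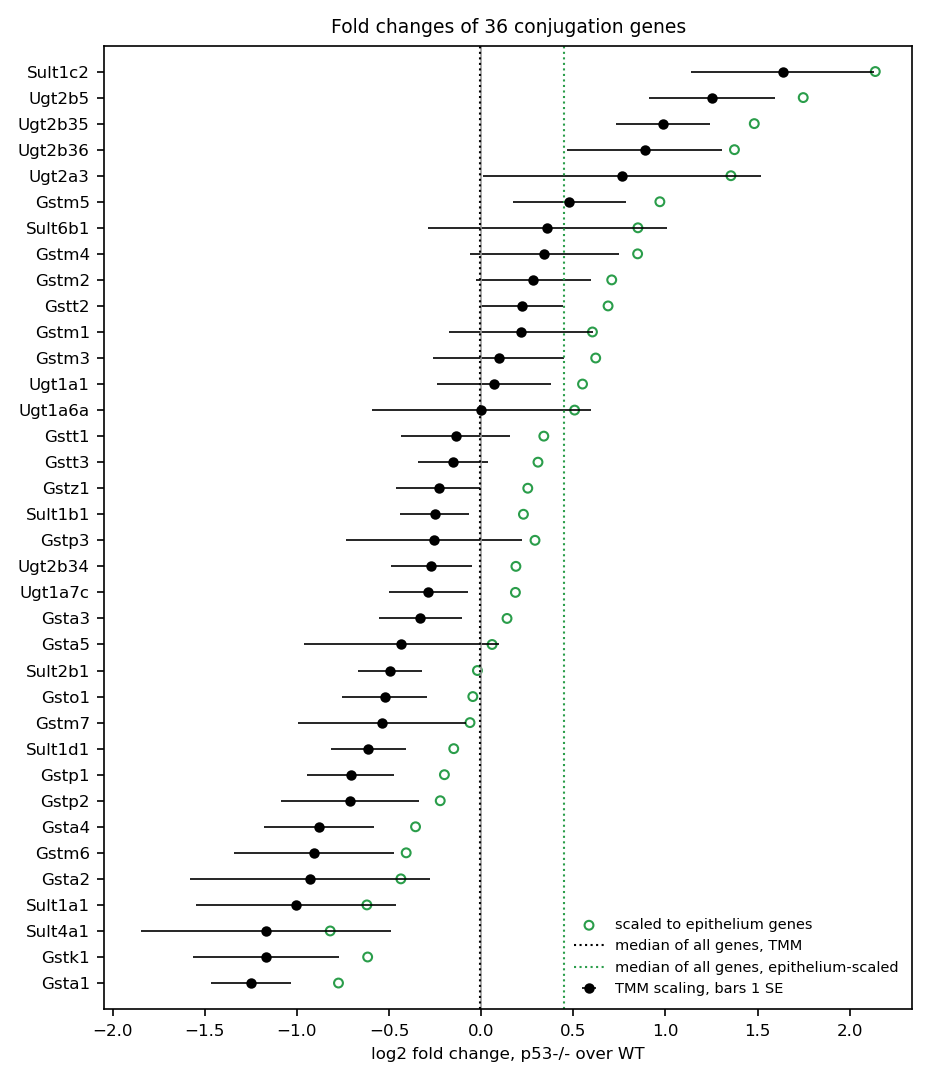
Log2 fold change of p53-/- over WT for 36 conjugation genes after TMM scaling (black, bars 1 SE) and with libraries scaled to the 12 epithelial markers (green circles), with dotted lines at the median of all genes tested under each scaling (-0.01 and 0.45). Gsta1, Gstk1, Sult4a1 and Sult1a1 lie lowest and Sult1c2, Ugt2b5 and Ugt2b35 highest under both scalings, while genes such as Ugt2b34 and Sult1b1 cross 0. Sult6b2, with 0 counts in WT, is not drawn.

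Markers of epithelial cells lay on both sides of WT. All 12 general epithelial markers had negative fold changes, with a median of -0.46, and their sum was 32182 and 23238 CPM in WT and 21512 and 18091 CPM in p53-/- SI. Of 16 enterocyte markers 14 were negative, with a median of -0.62 and sums of 32123 and 32041 against 26541 and 21391 CPM. Crypt markers lay the other way, with 8 of 10 positive and sums of 496 and 345 CPM in WT against 1087 and 1177 CPM in p53-/- SI, of which Olfm4, the stem cell marker, made 47.6 and 16 against 473 and 525 CPM. Paneth cell markers were positive for 6 of 7, with sums of 14517 and 10073 against 16502 and 19401 CPM. All 14 T cell markers were positive, with sums of 17.0 and 30.9 CPM in WT against 186 and 304 CPM in p53-/- SI, and macrophage markers summed to 93.1 and 229 against 285 and 721 CPM. B cell markers summed to 3.78 and 8.18 CPM in WT, 34.8 CPM in library 9 and 902 CPM in library 10. Adipose markers summed to 149 and 108 CPM in WT and 23.8 and 16.2 CPM in p53-/- SI. Past the edgeR threshold, 2 adipose markers were lower, as were 0.193% of all genes. The part of these cell types in the values of the conjugation genes was not tested.

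When the summed counts of the epithelial markers were taken as library sizes, the median log2 fold change of all genes became 0.45, and that of the 37 conjugation genes became 0.25. Against that shift, 17 of the 37 (45.9%) lay above WT without overlap and 3 (8.11%) below, where all genes gave 52.7 and 5.56%. The sign was then positive for 24 conjugation genes and negative for 13, against 15 and 22 under TMM scaling.

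Markers of position along the SI lay in both directions. All 8 distal markers had negative fold changes, with a median of -1.01 and sums of 14412 and 10100 CPM in WT against 6236 and 6366 CPM in p53-/- SI. The 8 proximal markers had a median of 1.41, with 5 above and 2 below WT without overlap (26.4 and 24.4% of all genes tested). Their sum was nevertheless lower in p53-/- SI (752 and 688 against 1108 and 872 CPM). Most of that sum came from Ggt1, at 735 and 663 CPM in WT and 521 and 461 CPM in p53-/- SI. Ggt1 and Rbp2, the latter with 112 to 330 CPM, were the 2 below WT. Slc40a1, the iron exporter of proximal enterocytes, was at 32.4 and 21.2 CPM in WT and 92.0 and 73.8 CPM in p53-/- SI. Where along the SI each sample was cut is not given in the sources used here, and the part of position in the values of the conjugation genes was not tested.

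Genes around conjugation, among them suppliers of cofactors, exporters, other enzymes and regulators, were read from 7 lists chosen by function. Of the 86 tested, 0 passed the edgeR threshold, which 0.491% of all genes tested passed. At an unadjusted edgeR p under 0.05 stood 18% of all genes, 10% higher and 7.92% lower. Of 6 genes for UDP-glucuronate supply, the cofactor of UGTs, 0 had an unadjusted edgeR p under 0.05, with a median log2 fold change of -0.31. Ugdh, which makes UDP-glucuronate, was at 202 and 190 CPM in WT and 166 and 138 CPM in p53-/- SI. Slc35a3, a nucleotide sugar transporter and the most counted gene of the list, overlapped between genotypes at 148 to 267 CPM, and Slc35d2, with the largest fold change without overlap, was at 18.4 and 10.4 CPM in WT and 9.69 and 9.45 CPM in p53-/- SI. Gusb, the lysosomal enzyme that removes glucuronate, lay the other way, at 40.7 and 37.5 against 46.9 and 53.6 CPM.

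The 10 genes for the supply of the sulfate donor had a median of -0.34. At an unadjusted edgeR p under 0.05, 2 of the 10 were lower in p53-/- SI, against 7.92% of all genes. They were Slc26a2, a sulfate transporter and the most counted gene of the list, at 702 and 707 CPM in WT and 525 and 386 CPM in p53-/- SI, and Slc26a3, at 158 and 119 against 68.9 and 54.4 CPM (log2 fold change -1.17, edgeR adjusted p = 0.103). Slc26a3 is known chiefly as the chloride and bicarbonate exchanger of the gut. Papss1 and Papss2, which make the sulfate donor itself, had log2 fold changes of -0.35 and -0.40.

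Glutathione genes lay on both sides of WT. Gclc and Gclm, the subunits of the rate-limiting enzyme of glutathione synthesis, and Gss, which completes it, were all lower in p53-/- SI without overlap, with log2 fold changes of -0.78, -0.63 and -0.50 and unadjusted edgeR p of 0.0158, 0.0387 and 0.0441. Gsr, which regenerates reduced glutathione, was at 276 and 217 CPM in WT and 417 and 358 CPM in p53-/- SI (log2 fold change 0.65, edgeR adjusted p = 0.224). Slc7a11, the cystine importer, had 20 and 23 counts in WT, 57 in library 9 and 234 in library 10. Gpx2, a gut glutathione peroxidase and the most counted gene of the list, overlapped between genotypes at 505 to 813 CPM. Over the 14 genes, 2 were higher and 4 lower at an unadjusted edgeR p under 0.05, against 10 and 7.92% of all genes. The median log2 fold change was 0.06.

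Exporters of conjugates had the lowest median of the 7 lists, a log2 fold change of -0.81 over 9 genes, against -0.01 for all genes tested. Of the 9, 7 lay below WT without overlap, as did 24.4% of all genes tested. Abcc2, the apical pump for glucuronide, sulfate and glutathione conjugates, was at 143 and 99.5 CPM in WT and 41.3 and 50 CPM in p53-/- SI (log2 fold change -1.41, SE 0.24, edgeR adjusted p = 0.0836). Abcc3, the basolateral pump for glucuronides, was the only exporter above WT, at 61.1 and 62.1 CPM in WT and 135 and 105 CPM in p53-/- SI (log2 fold change 0.96, SE 0.19, edgeR adjusted p = 0.103). Abcb1a, the P-glycoprotein of the gut, was at 1131 and 878 against 457 and 297 CPM. Abcb1b had the largest log2 fold change of the list, -1.62, at 33 to 110 counts per library.

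Among 14 other conjugating and epoxide-clearing enzymes, 1 was higher and 3 were lower at an unadjusted edgeR p under 0.05, against 10 and 7.92% of all genes. Ephx1, the microsomal epoxide hydrolase that works beside the GSTs on epoxides, had 1249 and 1192 counts in WT and 100 and 292 counts in p53-/- SI, a log2 fold change of -3.04 (SE 0.55, edgeR adjusted p = 0.0946). Its fold change was larger in size than that of any conjugation gene with counts in every library. Hpgds, a prostaglandin D synthase of the GST superfamily, had 33 and 43 counts in WT and 137 and 110 counts in p53-/- SI. Mgst3, the most counted gene of this list, overlapped between genotypes at 186 to 234 CPM.

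Of 25 transcriptional regulators of conjugation genes, 1 was higher and 8 were lower at an unadjusted edgeR p under 0.05. Of all genes, 10% were higher and 7.92% lower. The median log2 fold change of the regulators was -0.34. Nfe2l2, which encodes NRF2 and drives many GST genes through the antioxidant response element, was at 158 CPM in both WT libraries and at 89.5 and 87.6 CPM in p53-/- SI (log2 fold change -0.83, SE 0.16, edgeR adjusted p = 0.101). Nr1i2, the xenobiotic receptor PXR, was at 130 and 111 against 86.5 and 72.1 CPM, and Cdx2, an intestinal identity factor, at 533 and 338 against 231 and 204 CPM. Ahr, the receptor for planar aromatic ligands, was the 1 regulator higher at that p, at 10.1 and 10.5 CPM in WT and 14.9 and 18.1 CPM in p53-/- SI. Gata4, with the largest fold change without overlap, had 38 and 7 counts in WT and 73 and 83 counts in p53-/- SI. Hnf4a was the most counted regulator, at 777 to 1454 CPM with overlapping genotypes. Of 8 NRF2 and AHR target genes outside the 3 families, 2 were lower at an unadjusted edgeR p under 0.05, against 7.92% of all genes. They were Srxn1, the most counted of the 8, and Tiparp, and the median of the list was -0.39. Cbr3, with the largest fold change without overlap, was at 5.82 and 6.94 CPM in WT and 3.99 and 2.74 CPM in p53-/- SI.

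**Figure D4:**
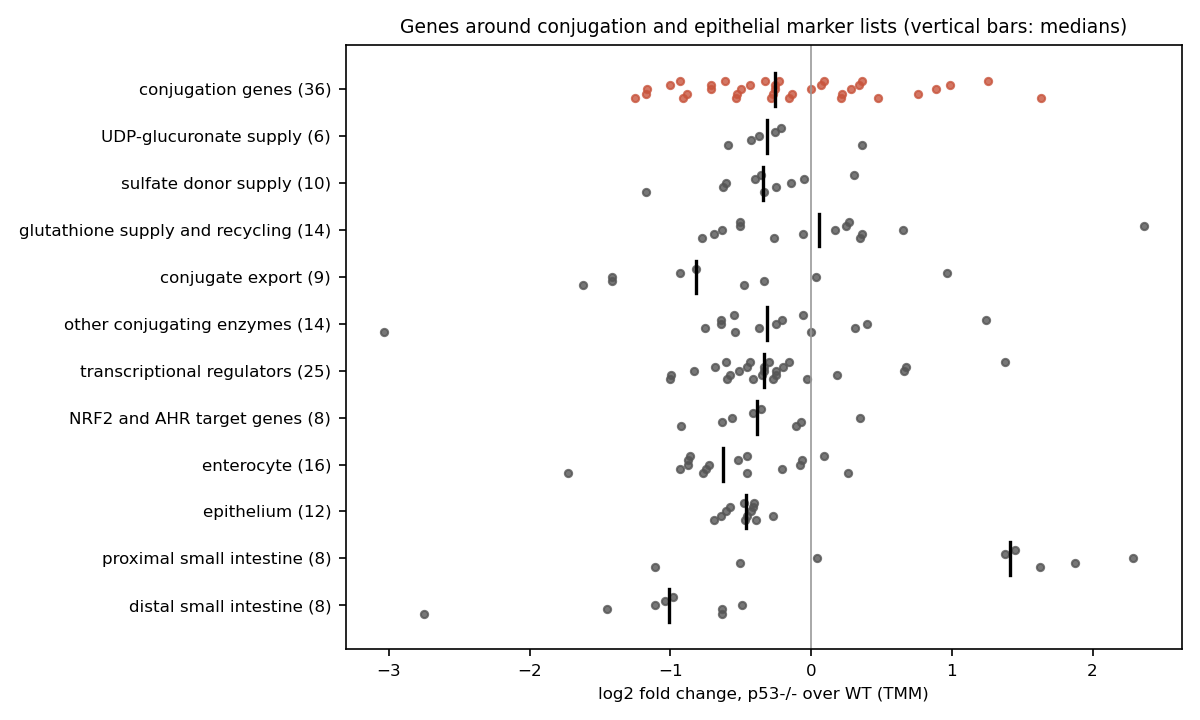
Log2 fold change of p53-/- over WT after TMM scaling for each tested gene of the conjugation families (red), the 7 lists around them and 4 marker lists (grey), with vertical bars at the medians and the number of genes in parentheses. Conjugate export (median -0.81), enterocyte (-0.62) and distal markers (-1.01) lie left of the conjugation genes and proximal markers (1.41) lie right of them, and Sult6b2 is not drawn.

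The promoters of tested conjugation genes were also searched for the core letters of 3 elements on both strands, among 66 RefSeq promoters found for 55 of the conjugation genes and 32851 in all. A match is a description of letters, not of binding. The antioxidant response core TGACNNNGC was in the promoters of Gsta3, Gstm5 and Gstm7 (3 of 42 promoters of 33 tested genes, and 12.4% of all promoters). The xenobiotic response core GCGTG was in 11 of the 42, Gsta1 among them, and in 32.4% of all promoters. The p53 decamer, the unit that is repeated in a p53 response element, was in 4 of the 42, belonging to Gsta3, Gstt3 and Ugt1a7c, and in 8.36% of all promoters. None of these elements was held by the promoters of Ugt2b35, Ugt2b36 and Ugt2b5, which lay above WT, or by that of Ugt2b34, which lay below.

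Conjugation genes without counts at this depth made up some branches of the families and single members of others. All 8 SULT2A genes, which act on bile acids and steroids in liver, had 0 counts in every library, as did Sult1c1, Sult3a1, Sult3a2, Sult5a1, Ugt1a5, Ugt1a10, Ugt2a1, Ugt2a2 and Ugt2b37. A count of 0 allows a level of up to 0.131 to 0.195 CPM in these libraries, with 3 counts as the limit. That limit covers only reads that were assigned to a gene. Of their exonic bases, 1.17% of Ugt2a1, 5.51% of Ugt2a2, 35.7% of Ugt1a10 and 40.5% of Ugt1a5 are not shared with another gene. Whether reads of these genes were lost in the counting was not tested. Ugt1a2, Ugt1a6b, Ugt1a8, Ugt1a9, Ugt2b1, Ugt2b38, Sult1e1, Gsto2 and Gstt4 had between 0 and 4 counts per library, and no comparison was made for them. All 23 GSTs had at least 1 count in some library.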

How the data were processed

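Messenger RNA purified from total RNA of SI tissue was sequenced in 4 libraries. The authors deposited 1 table for all samples, with the raw read counts of each gene and no normalization. The submitters' processing notes name fastp, HISAT2 2.0.5, featureCounts 1.5.0-p3 and DESeq2 1.20.0. The genome build, the annotation and the strand setting of the counting are not given in the sources used here, so near-identical paralogs and overlapping genes may have lost reads to each other. The columns name the genotype and a library number that matches no replicate number of the labels. The libraries of a genotype differed beyond sampling noise (chi-square per degree of freedom 52.8 for WT and 77.3 for p53-/-) and were counted as separate samples.

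From the deposited counts, libraries were scaled by TMM, genes with low counts were removed by filterByExpr (minimum count 10, minimum total 15), and genotypes were compared, two-sided, with the quasi-likelihood test of edgeR 4.0.16 (limma 3.58.1, R 4.3.3) over all 16094 genes left, with Benjamini-Hochberg adjustment and a threshold of 0.05. The scripts were tested on simulated data. SE is the size of the log2 fold change divided by the root of the F statistic. Libraries held 15005479 to 22173164 counts, so that 1 count was 0.0438 to 0.0649 CPM. Gene classes were also tested as sums. Exon lengths and shared sequence (windows of 75 bases) came from the GENCODE M21 annotation, which matched 63 of 63 genes by identifier, and promoters from RefSeq, GRCm38.p6, which matched 55 by symbol.

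Conjugation genes described one by one are those with a mean of at least 10 CPM in a genotype and, of those whose genotypes did not overlap, the 5 with the largest positive and the 5 with the largest negative fold change. Of each other list, the most counted gene and the one with the largest fold change without overlap were named, and further genes by their role after their values were seen. The conjugation genes, the other lists and the tests were chosen with earlier results of these data known. Alternatives were no scaling factor, RLE and upper-quartile factors, libraries scaled to the epithelial markers, DESeq2 1.42.0, the likelihood ratio test in edgeR, all genes without a filter, only genes with 10 counts or more in each library, and each library left out in turn. With 1 library left out, the lone library of a genotype is assumed to vary like the pair of the other.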

Additional observations from a re-analysis of the deposited data

How the results depend on the processing

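The count of conjugation genes past the threshold (0 higher and 0 lower) was 2 higher and 3 lower with DESeq2, 2 and 1 with the likelihood ratio test, 3 and 4 without a filter, and 0 and 0 to 3 as each library was left out (3 without WT library 8, where 5.99% of all genes were called, and 0 without library 10, where 0 genes of any kind were). Gene class sums lower past the threshold (0) numbered 3 with DESeq2, 1 with the likelihood ratio test, 2 without a filter and 0 to 2 as libraries were left out (2 without WT library 8). The median log2 fold change of the conjugation genes (-0.25) was -0.17 with no scaling factor, -0.19 with upper-quartile factors, -0.18 with at least 10 counts in every sample, -0.30 to -0.16 as libraries were left out, and 0.25 under epithelial scaling, where the median of all genes shifted to 0.45. That scaling turned the sign of Gsta3 (0.14), Gsta5 (0.06), Gstp3 (0.29), Gstt1 (0.34), Gstt3 (0.31), Gstz1 (0.25), Sult1b1 (0.23), Ugt1a7c (0.19) and Ugt2b34 (0.19). It also turned that of the sums of GSTT (0.45), GSTZ (0.25), SULT1 (0.0842), UGT1A (0.26) and UGT2B (0.30). As each library was left out, Gstm1 ranged from -0.24 to 0.89 (negative without library 7), Gstm3 from -0.23 to 0.52 (negative without library 8), Gstt1 from -0.40 to 0.12 (positive without library 9), the UGT2B sum from -0.32 to 0.0266 (positive without library 10) and the GSTT sum from -0.0626 to 0.0781. The GSTT sum was also 0.0562 with the stricter filter, 0.0524 with no scaling factor, 0.0276 without a filter and 0.0377 with upper-quartile factors. The cause of these changes was not tested. Ugt1a1 and Ugt1a6a, near 0, ranged from -0.12 to 0.30 and from -0.34 to 0.45 as libraries were left out. DESeq2, the likelihood ratio test and the unfiltered fit all called Gsta1 and Ugt2b35. No paired analysis was possible because the columns of the table carry library numbers 7 to 10 and not the replicate numbers of the labels. With 2 libraries per genotype the spread rests on little data, and genes at 3 counts or fewer could not be compared.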
